A study of Mus musculus with 6 samples.

Results

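The citric acid cycle oxidises acetyl-CoA in the mitochondrial matrix, and its dehydrogenases pass electrons to the respiratory chain. In podocytes, the epithelial cells that cover the glomerular capillaries, it links the breakdown of glucose, fatty acids and glutamine to ATP production. Citrate synthase, which joins acetyl-CoA to oxaloacetate, opens the cycle, and its activity is widely used as a measure of mitochondrial content. The study assayed that activity and ATP separately, and neither is analysed here.

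The genes described are 9 citric acid cycle enzymes, taken by symbol from a table of 57132 genes: Cs, Idh3a, Idh3b, Idh3g, Ogdh, Dlst, Suclg1, Fh1 and Mdh2. All 9 were found and all passed the filter on low counts. RNA was sequenced from 3 samples of the immortalized wildtype line IMWT (WT, genotype Col4a3+/+) and 3 of the immortalized Alport Syndrome line IMAS (AS, genotype Col4a3-/-), both described as coming from adult male mice of 8 weeks. Per the labels, both lines were kept at 33 °C with 10% serum and 20 U/mL interferon gamma and differentiated for 14 days at 37 °C, without other treatment. The study's methods give another medium, a lower interferon dose that was withdrawn for differentiation, and a shorter differentiation. Both lines were made by crossing Col4a3 knockout mice with H-2kb-tsA58 mice, so that WT and AS cells share the temperature-sensitive large T antigen. Each genotype was 1 line, and genotype and line cannot be told apart. The study's methods state in general that independent experiments were analysed, but neither they nor the labels say whether the samples of a line were separate cultures. In either case the p-values rest only on the spread between samples within these lines. If the samples were not separate cultures, that spread may be technical.

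The libraries held between 45417221 and 54290968 counts, and the 9 genes between 2091 and 17279 counts in any sample. Col4a3, the gene targeted in the AS line, was at 938, 1052 and 1272 CPM in the WT samples and 62.4, 61.2 and 82.9 CPM in the AS samples. Its RNA was thus lower but still counted in the AS line, and counts per gene do not tell which part of the gene they come from. CPM are counts divided by the library size, scaled by the trimmed mean of M values (TMM). Of 12 podocyte markers, Tcf21 had 0 counts in every sample, which allows up to 0.0209 CPM in the WT group and 0.0198 CPM in the AS group, and Nphs1 was at 0.466 and 0.0407 CPM on average. Of the 9 markers tested, 6 were lower and 2 higher in the AS line, beside 19.6% lower and 20.4% higher among all genes tested. The podocyte list summed to 1782 to 1951 CPM in WT and 1362 to 1439 CPM in AS samples. Of 6 mesangial or fibroblast markers, Col1a1 rose from 24.3 ± 4.15 to 477 ± 99.1 CPM and Pdgfrb fell from 253 ± 14.3 to 116 ± 0.362 CPM (SD, n = 3 each). The list summed to 5771 to 7929 CPM in WT and 6849 to 7954 CPM in AS samples, most of it Acta2, at 6701 and 6759 CPM on average. Endothelial and immune markers summed to at most 1.35 and 15.0 CPM, and tubule markers to 202 to 312 CPM, nearly all from Lrp2. Of 5 parietal epithelial markers tested 3 were lower, beside 19.6% of all genes tested, and 2 did not pass. The list summed to 643 to 672 CPM in WT and 503 to 533 CPM in AS samples. The part of these markers in the values below was not tested. In bulk RNA, fewer cells of a type and less RNA per cell cannot be told apart.

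The sequences upstream of 3 of the genes are shown because they lie on chromosomes whose genes as a group were shifted between the lines, as described further on. RefSeq promoters (GRCm38.p6) were matched by symbol for 8 of the 9 genes, and Idh3a was not matched. The 250 bases before the first listed start are given 5′ to 3′ for Cs (chr10:128337477-128337726, plus strand), Mdh2 (chr5:135778399-135778648, plus strand) and Suclg1 (chr6:73248255-73248504, plus strand). Capitals mark the letters GGGCGG (the GC box of Sp1), CCAAT (the NF-Y box) and TCTCGCGAGA, on either strand.
Cs: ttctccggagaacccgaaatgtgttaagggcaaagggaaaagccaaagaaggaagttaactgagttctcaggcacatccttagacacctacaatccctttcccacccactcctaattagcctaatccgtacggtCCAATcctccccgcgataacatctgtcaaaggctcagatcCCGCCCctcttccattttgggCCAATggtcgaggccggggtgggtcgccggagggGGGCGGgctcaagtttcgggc
Mdh2: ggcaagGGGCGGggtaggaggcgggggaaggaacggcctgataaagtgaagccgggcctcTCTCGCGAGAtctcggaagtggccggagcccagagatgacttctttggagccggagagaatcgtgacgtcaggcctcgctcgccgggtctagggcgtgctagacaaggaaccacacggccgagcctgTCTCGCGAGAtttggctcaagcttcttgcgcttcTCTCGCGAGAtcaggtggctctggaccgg
Suclg1: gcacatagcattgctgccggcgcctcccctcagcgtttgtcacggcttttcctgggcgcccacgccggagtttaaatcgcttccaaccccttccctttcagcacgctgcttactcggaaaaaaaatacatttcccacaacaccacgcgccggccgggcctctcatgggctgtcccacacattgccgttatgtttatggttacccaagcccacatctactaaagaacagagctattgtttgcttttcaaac
The Cs stretch held 2 GC boxes and 2 CCAAT boxes. The Mdh2 stretch held 1 GC box and 3 copies of TCTCGCGAGA, a palindrome searched for only after it was seen there. Among 32851 listed promoters of the same length, 32.7% held GGGCGG, 33.8% held CCAAT and 0.39% held TCTCGCGAGA. At the first listed start of the 8 genes, 4 held GGGCGG (Cs, Dlst, Fh1 and Mdh2), 4 held CCAAT (Cs, Fh1, Idh3b and Ogdh) and 1, that of Idh3g, held AANATGGC, the letters of YY1, found in 3.91% of all. None of the 8 held the motif of the nuclear respiratory factor NRF1 (3.74% of all) or AAGGTCA, the core element of the estrogen-related receptors (4.08% of all). Of these genes only Ogdh had more than 1 listed start, and GGGCGG lay before 2 of its other starts. The motifs marked do not overlap each other.

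Cs was the only one of the 9 genes that rose in AS podocytes, and Idh3a was the only one that fell. The other 7 did not pass the test. With 2 of 9 genes called at an adjusted p under 0.05, these enzymes stood beside 40.1% of the 16263 genes tested, of which 20.4% were called higher and 19.6% lower. In 7 of the 9 the log2 fold change was below 0, and the median of the 9 was -0.079. Of all genes tested, 50.7% were above 0, and the median was 0.0061. The summed level of the 9 genes averaged 1067 CPM (SD 10.8, n = 3) for WT samples and 1093 CPM (SD 25.7, n = 3) for AS samples, and the ranges overlapped. Mitochondrially encoded genes took 0.882, 1.39 and 1.68% of the counts in WT replicates 1, 2 and 3 and 1.30, 1.65 and 2.02% in AS replicates 1, 2 and 3. These ranges overlapped, although the AS sample was above the WT sample of the same number in 3 of 3 cases. The replicate numbers were not shown to pair the samples, as described further on. The part of the mitochondrial share in the results was not tested.

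**Figure D1:**
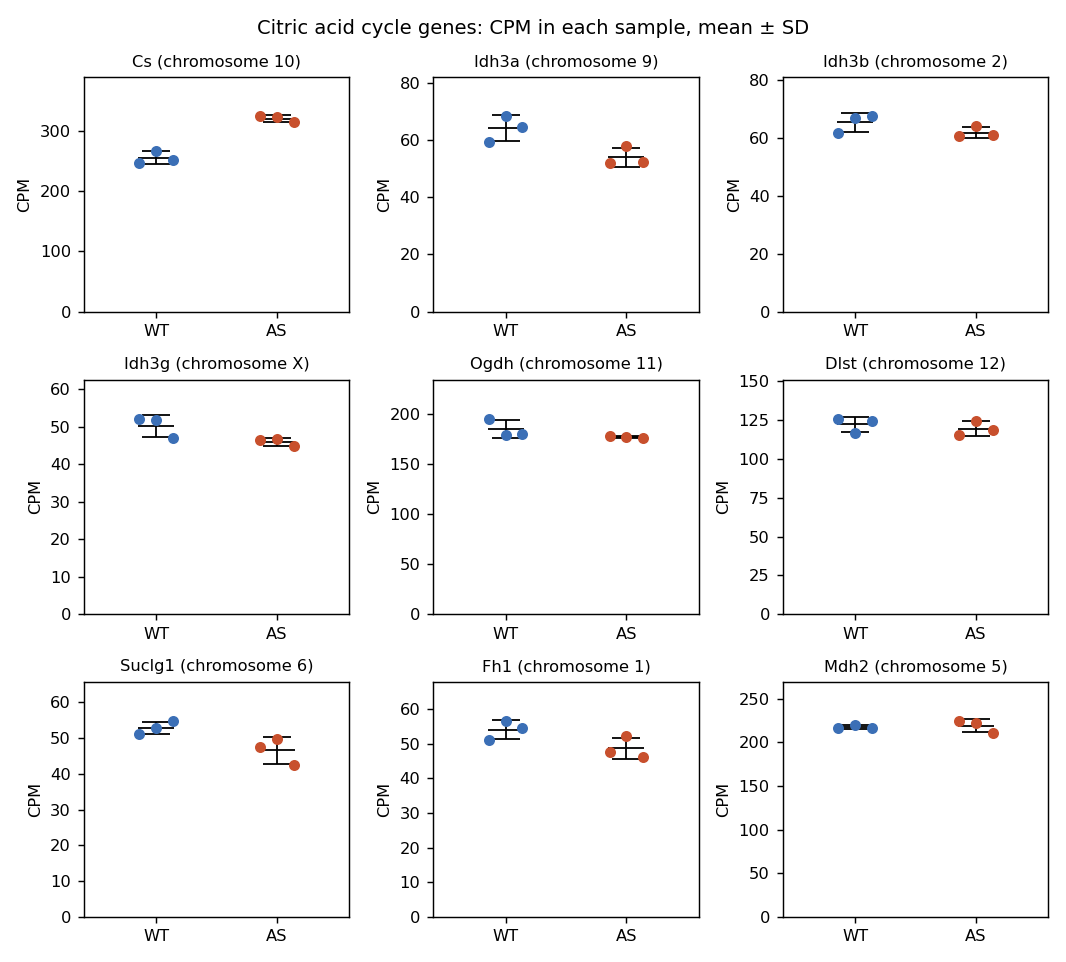
CPM of the 9 citric acid cycle genes in each of the 3 WT (blue) and 3 AS (red) samples, with the mean and SD of each group as black lines. Cs sits between 246 and 267 CPM in WT and between 314 and 324 CPM in AS samples, while Mdh2, Dlst, Idh3b and Fh1 overlap between the lines.

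Cs (ENSMUSG00000005683.9, chromosome 10) was at 246, 267 and 252 CPM in the WT samples and at 324, 322 and 314 CPM in the AS samples. Every AS sample lay above every WT sample. On the log2 scale Cs was higher by 0.33 (standard error, SE, 0.06, adjusted p = 0.00150, edgeR's quasi-likelihood test), a level 1.25 times that of WT podocytes. It stayed between 0.30 and 0.36 under all alternatives run and passed the threshold in each. The ratio of Cs to the geometric mean of the other 8 genes, a description within each sample, came to 2.91, 3.08 and 2.93 across the WT samples and to 4.11, 3.89 and 4.08 across the AS samples, and the groups did not overlap.

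The isocitrate dehydrogenase complex that uses NAD, which makes 2-oxoglutarate from isocitrate, is built from the catalytic subunit Idh3a and the subunits Idh3b and Idh3g. Idh3a (ENSMUSG00000032279.12, chromosome 9) was at 59.4, 68.5 and 64.7 CPM in WT and 51.9, 58.0 and 52.4 CPM in AS samples, and the groups did not overlap. Its log2 fold change was -0.25 (SE 0.07, adjusted p = 0.0217, edgeR). The call was lost without WT replicate 2 (adjusted p = 0.0817), WT replicate 3 (0.0583), AS replicate 1 (0.0708) or AS replicate 3 (0.0873), and with scaling by library size only (0.0523), all in edgeR. Idh3b (ENSMUSG00000027406.14, chromosome 2) was at 61.8, 66.7 and 67.6 CPM in WT and 60.5, 64.2 and 60.8 CPM in AS samples, which overlapped. The Idh3b difference was -0.08 on the log2 scale, with a 95% interval of -0.21 to 0.05. Idh3g (ENSMUSG00000002010.18, chromosome X) was at 52.2, 51.7 and 46.9 CPM in WT and 46.4, 46.8 and 44.8 CPM in AS samples. The WT values of Idh3g all lay above the AS values, and the closest pair, 46.9 and 46.8 CPM, nearly met. Its log2 fold change was -0.13 (95% interval -0.27 to 0.01, adjusted p = 0.135, edgeR).

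The 2-oxoglutarate dehydrogenase complex makes succinyl-CoA, with Ogdh as its first component and Dlst as its succinyltransferase. Ogdh (ENSMUSG00000020456.18, chromosome 11) was at 196, 180 and 180 CPM in WT and 178, 177 and 177 CPM in AS samples. WT replicate 1 stood above the other 5 samples, whose values were close together. The Ogdh log2 fold change was -0.06 (95% interval -0.19 to 0.06, adjusted p = 0.425, edgeR). Dlst (ENSMUSG00000004789.11, chromosome 12) was at 126, 117 and 124 CPM in WT and 115, 125 and 119 CPM in AS samples. The groups overlapped, and the log2 fold change of Dlst was -0.04 (95% interval -0.16 to 0.09, adjusted p = 0.657, edgeR).

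Suclg1 is the alpha subunit of succinyl-CoA synthetase, which both forms of the enzyme share. Suclg1 (ENSMUSG00000052738.15, chromosome 6) was at 51.2, 52.7 and 54.7 CPM in WT and 47.5, 49.8 and 42.5 CPM in AS samples, which did not overlap. Its log2 fold change was -0.18 (SE 0.07, adjusted p = 0.0664, edgeR), and it passed without WT replicate 1 (adjusted p = 0.0444) or AS replicate 2 (adjusted p = 0.0477). Fh1, fumarase, makes malate from fumarate. Fh1 (ENSMUSG00000026526.15, chromosome 1) was at 51.1, 56.4 and 54.4 CPM in WT and 47.6, 52.1 and 46.1 CPM in AS samples, with WT replicate 1 below AS replicate 2. The log2 fold change of Fh1 was -0.15 (SE 0.07, adjusted p = 0.108, edgeR), and it passed without WT replicate 1 (-0.19, adjusted p = 0.0436). Without WT replicate 1, edgeR therefore called 4 of the 9 genes, namely Cs, Idh3a, Suclg1 and Fh1.

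Mdh2, the mitochondrial malate dehydrogenase, returns oxaloacetate to citrate synthase. Mdh2 (ENSMUSG00000019179.11, chromosome 5) was at 216, 220 and 217 CPM in WT and 224, 222 and 211 CPM in AS samples. The AS samples lay on both sides of the WT samples. The difference was 0.010 on the log2 scale (95% interval -0.11 to 0.13, adjusted p = 0.900, edgeR), so that a rise as large as that of Cs lay outside its interval. Over the 9 genes, the groups did not overlap in 5 (Cs, Idh3a, Idh3g, Ogdh and Suclg1), beside 52.3% of all genes tested.

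Levels of different genes were set side by side as CPM per kilobase of the principal transcript. In WT podocytes Mdh2 was highest, at 149 ± 1.25 CPM per kilobase (SD, n = 3), followed by Cs at 87.2 ± 3.66. Ogdh (44.9 ± 2.21) and Dlst (44.3 ± 1.77) came next, and their ranges overlapped. Idh3b was at 40.4 ± 1.94, Idh3g at 37.8 ± 2.19 and Suclg1 at 34.8 ± 1.14, with overlapping ranges between each neighbour in this order. Idh3a (26.7 ± 1.89) and Fh1 (20.5 ± 1.02) were lowest and overlapped with no neighbour. The order in AS podocytes was the same but for Dlst and Ogdh, which changed places and overlapped in both lines. The Idh3a level was 0.647, 0.690 and 0.644 times that of Idh3b in the WT samples and 0.577, 0.607 and 0.579 times in the AS samples, so that no AS sample reached a WT sample. Dlst over Ogdh, also per kilobase, averaged 0.988 ± 0.0388 across WT samples and 1.00 ± 0.0435 across AS samples (SD, n = 3 each).

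Whether Cs stood out or followed its chromosome was examined against the 530 genes of chromosome 10 whose mean log2 CPM exceeded 2. Their median log2 fold change was 0.32, 85.3% of them were above 0, and 67.5% were called higher in AS podocytes. Of these genes, 49.2% had a larger log2 fold change than Cs, which placed Cs at the middle of its chromosome. With the chromosome median taken out within the edgeR fit, the Cs difference was 0.0037 on the log2 scale (SE 0.06, 95% interval -0.12 to 0.13, adjusted p = 0.969). This fit takes the median as known, without error.

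The same held sample by sample, as a description. Relative to the WT mean, Cs was at 0.35, 0.34 and 0.30 on the log2 scale in the AS samples, and the median chromosome 10 gene was at 0.32, 0.34 and 0.32. In the WT samples Cs was at -0.050, 0.066 and -0.018, and the median gene at -0.019, 0.037 and -0.027. The values of Cs and of the median gene differed by less than 0.05 in every sample.

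**Figure D2:**
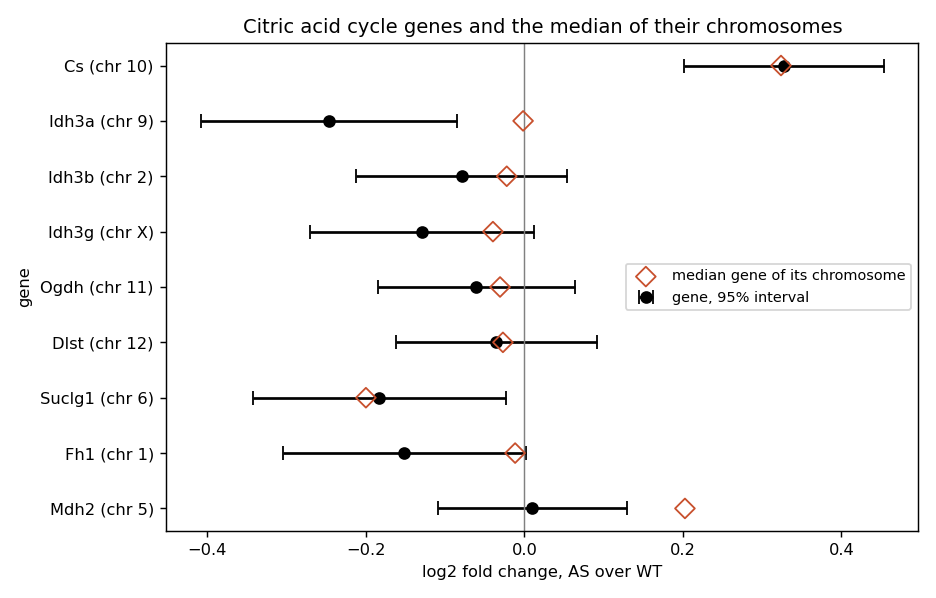
Log2 fold change of each gene, AS over WT (black points, 95% interval as bars), with the median log2 fold change of the genes of its chromosome (red diamonds). The diamond lies on the point for Cs (0.33 and 0.32) and Suclg1 (-0.18 and -0.20) and outside the interval for Idh3a and Mdh2.

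The genes around Cs spread widely. Of the nearest 25 genes of that level on each side, 40 of 50 were above 0, 32 were called higher and 3 lower in AS podocytes, and 21 exceeded Cs. Their log2 fold changes ran from -0.82 to 0.99 with a median of 0.26. With that neighbourhood median as the reference, Cs was at 0.067 (adjusted p = 0.400, edgeR). The 3 nearest protein-coding genes tested before Cs were Stat2, a transducer of interferon signals (log2 fold change 0.49, adjusted p = 0.00307), Pan2, a deadenylase (0.78, adjusted p = 0.000271), and Cnpy2 (0.41, adjusted p = 0.00125). Those after Cs were Coq10a, which binds coenzyme Q (0.15, adjusted p = 0.219), Ankrd52 (-0.08, adjusted p = 0.350) and Nabp2, a binder of single-stranded DNA (0.40, adjusted p = 0.00116, edgeR throughout). With the chromosome median taken out, Pan2 stayed higher by 0.46 (adjusted p = 0.00667) and Ankrd52 was lower, at -0.40 (adjusted p = 0.000898), while Cs, Stat2, Cnpy2, Coq10a and Nabp2 did not pass.

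**Figure D3:**
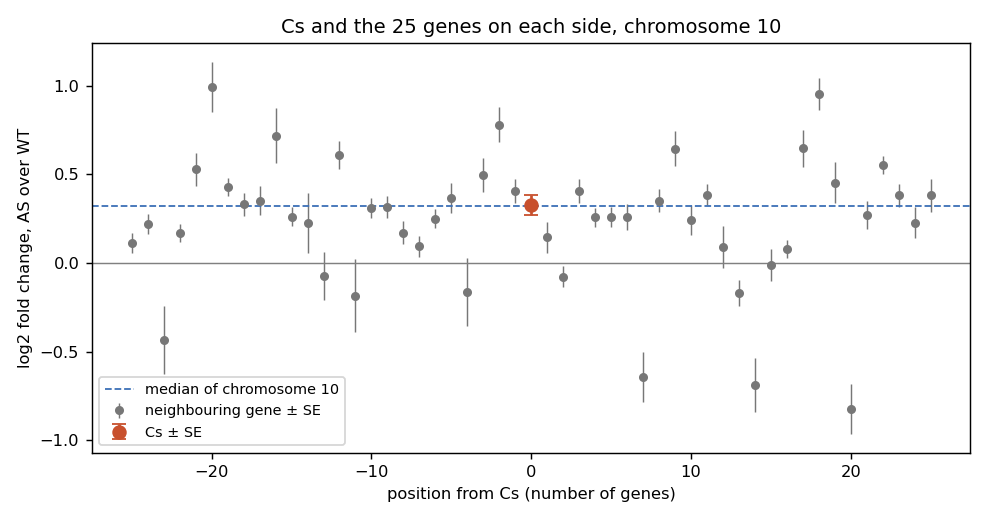
Log2 fold change (AS over WT, ± standard error) of Cs (red) and of the 25 genes on each side (grey), by position in gene order on chromosome 10. Cs lies on the dashed line at the chromosome median of 0.32, amid neighbours from -0.82 to 0.99.

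The other 8 genes lay on 8 other chromosomes. For 6 of these chromosomes (1, 2, 9, 11, 12 and X) the median log2 fold change was between -0.040 and -0.0016, so that taking it out moved these genes little. Chromosome 6 had a median of -0.20, and Suclg1, at -0.18, was at 0.017 relative to it (95% interval -0.14 to 0.18, adjusted p = 0.877, edgeR). Chromosome 5 had a median of 0.20, and Mdh2, level between the lines, was lower relative to it by -0.19 (SE 0.05, adjusted p = 0.0204, edgeR). Of the 691 genes used for chromosome 5, 76.6% lay above Mdh2. This call was lost without WT replicate 2 (adjusted p = 0.0775), WT replicate 3 (0.0604), AS replicate 2 (0.0538) or AS replicate 3 (0.0958), all in edgeR.

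Relative to its chromosome, Idh3a remained lower, at -0.25 (adjusted p = 0.0266, edgeR), and 78.6% of the chromosome 9 genes lay above it. The call was lost without WT replicate 2 (adjusted p = 0.115), WT replicate 3 (0.0677), AS replicate 1 (0.0931) or AS replicate 3 (0.117), and with the neighbourhood median (0.0628). Fh1, at -0.14 (adjusted p = 0.151), passed without WT replicate 1 (-0.19, adjusted p = 0.0463) and with the neighbourhood median (-0.20, adjusted p = 0.0495). In all, 2 of 9 genes, Idh3a and Mdh2, were called relative to their chromosomes, both lower, beside 33.0% of all genes tested. Between 0 and 3 were called with 1 sample left out: 0 without WT replicate 2, WT replicate 3 or AS replicate 3, 1 without AS replicate 1 or AS replicate 2, and 3 without WT replicate 1.

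**Figure D4:**
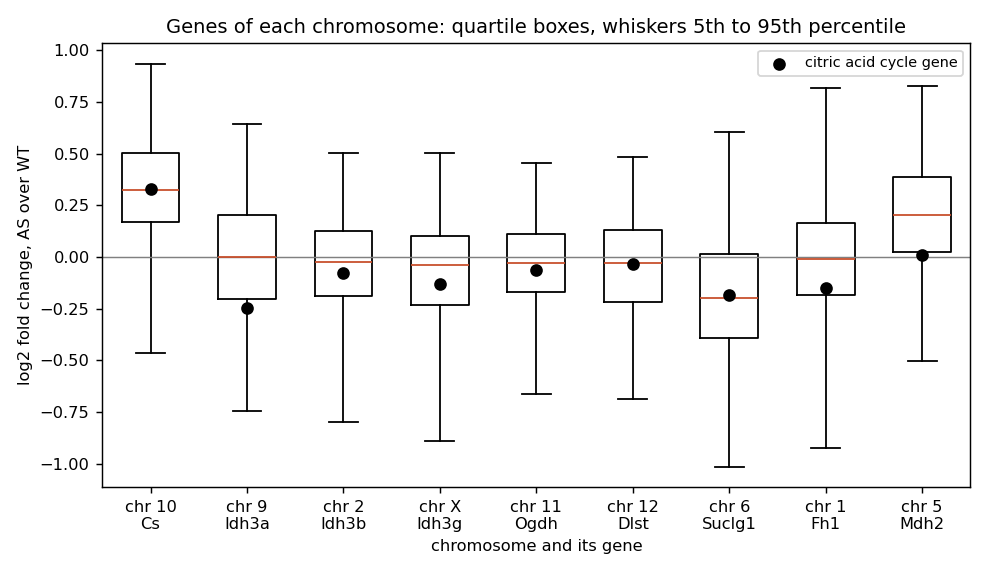
Log2 fold change (AS over WT) of all genes above a mean log2 CPM of 2 on each of the 9 chromosomes, as boxes from the lower to the upper quartile with a red median line and whiskers at the 5th and 95th percentiles, and of the citric acid cycle gene on that chromosome (black points). Cs sits on the median of the raised chromosome 10, whereas Mdh2 sits near the lower quartile of chromosome 5.

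The other enzymes of the cycle were read from the same fit. Of 9, 2 rose, Idh2 the more of them, 2 fell (Suclg2 and Sdhd) and 5 did not pass, so that 44.4% were called beside 40.1% of all genes tested. Idh2, the mitochondrial isocitrate dehydrogenase that uses NADP, was at 37.0, 29.6 and 22.4 CPM in WT and 59.6, 55.0 and 49.8 CPM in AS samples. Its rise of 0.88 on the log2 scale (SE 0.15, adjusted p = 0.00162, edgeR) was the largest among the 18 enzymes, while its chromosome 7 had a median of -0.010.

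Suclg2, the beta subunit for GDP of the enzyme that Suclg1 belongs to, was at 73.2, 73.5 and 64.2 CPM in WT and 54.9, 49.2 and 53.4 CPM in AS samples. Its log2 fold change was -0.42 (adjusted p = 0.00149), and relative to chromosome 6, which also holds Suclg1, it was -0.22 (adjusted p = 0.0414, edgeR). Sdhd, a membrane anchor of succinate dehydrogenase, fell by 0.22 on the log2 scale (adjusted p = 0.0308, edgeR). Sdhd was no longer called without WT replicate 2, WT replicate 3, AS replicate 1 or AS replicate 3, or with scaling by library size only. Without WT replicate 3, AS replicate 1 or AS replicate 3, 2 of the 9 were called, Idh2 and Suclg2. Sdhb, named after its value was seen, was called only relative to its chromosome 4, at 0.19 (adjusted p = 0.0479), and was at 0.03 before.

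Across the 9 genes, the log2 fold change and the chromosome median had a Pearson correlation of 0.834 and a Spearman correlation of 0.433. Across all 18 enzymes of the cycle these were 0.423 and 0.385. Without Idh2, which rose most and lay far from its chromosome median, they were 0.721 and 0.389. Idh2 was the only gene left out. Cs, on the chromosome with the largest median among them (0.32), was not left out in the same way. All points come from the same 6 libraries and some enzymes share a chromosome, so that these values are a description.

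**Figure D5:**
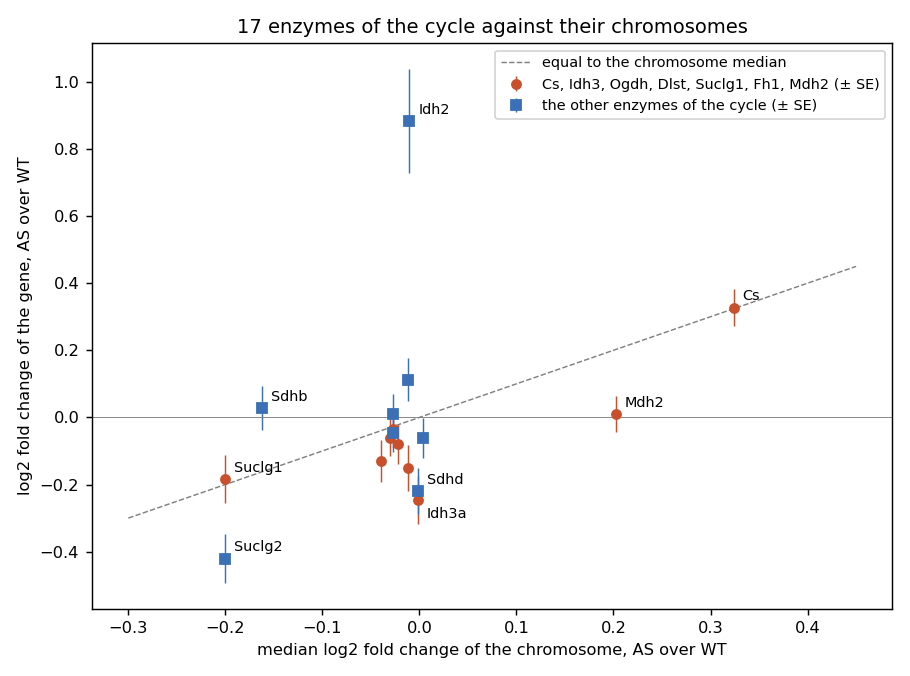
Log2 fold change of 17 citric acid cycle enzymes (AS over WT, ± standard error) against the median log2 fold change of their chromosomes, with the 9 genes described in red circles and 8 of the 9 others in blue squares (the remaining one is not shown). Cs lies on the dashed line of equality, Mdh2 lies below it and Idh2, at 0.88, far above it.

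Genes around the cycle were described by lists. Of 13 genes of pyruvate entry, 4 were higher, 3 were lower and 6 did not pass. That is 53.8% called, beside 40.1% of all genes tested, and the largest changes were in regulators of pyruvate dehydrogenase. The kinase Pdk2 was at 73.5, 57.5 and 63.4 CPM in WT and 33.4, 31.2 and 31.9 CPM in AS samples (log2 fold change -1.01, adjusted p = 2.63e-05). The kinase Pdk3 was also lower (-0.36, adjusted p = 0.00144), whereas the kinase Pdk1 (0.59, adjusted p = 0.000619) and the phosphatase Pdp1 (0.64, adjusted p = 0.000296) were higher, all in edgeR. Pdp2 and Pdpr, named after their values were seen, were higher by 0.41 and 0.28 and lie on chromosome 8, whose median was 0.32. Relative to it they were at 0.089 and -0.041 and did not pass.

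Of 7 mitochondrial genes that feed the cycle, 1 was higher, 3 were lower and 3 did not pass, which is 57.1% called beside the same 40.1%. The malic enzyme Me3 was at 26.9, 23.6 and 22.5 CPM in WT and 9.90, 9.40 and 8.34 CPM in AS samples (log2 fold change -1.40, adjusted p = 7.97e-06). Glud1, the glutamate dehydrogenase, fell by 0.35 on the log2 scale (adjusted p = 0.000818). Pcx, pyruvate carboxylase, was higher by 0.39 (adjusted p = 0.00762), and its value relative to chromosome 19 was 0.20 (adjusted p = 0.126, edgeR throughout). Got2, named after its value was seen, was at 0.14 (adjusted p = 0.0585) and became lower, at -0.19, relative to chromosome 8 (adjusted p = 0.0197).

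Of 10 cytosolic counterparts and carriers, 9 were tested, of which 6 were lower, 1 was higher and 2 did not pass, with a median log2 fold change of -0.36. Called were 77.8% of them, beside 40.1% of all genes tested, of which 19.6% were lower and 20.4% higher. Acly, which splits exported citrate, was at 382, 325 and 319 CPM in WT and 250, 246 and 232 CPM in AS samples (-0.49, adjusted p = 0.000946). The cytosolic malic enzyme Me1 (-0.48, adjusted p = 0.000363) and the dicarboxylate carrier Slc25a10 (-0.60, adjusted p = 0.00124) were lower as well, and the cytosolic isocitrate dehydrogenase Idh1 was higher (0.42, adjusted p = 0.00162, edgeR throughout). Pck1 had 0 counts in every sample. Of 8 tested genes for assembly and lipoyl cofactors, edgeR called 0, beside 40.1% of all genes tested. In edgeR 1 of the 8 had an unadjusted p under 0.05, and DESeq2 and limma-voom each called 0 as well.

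Sequences close to the 9 genes were few in the counts. Csl, a paralog of Cs, matched 92.8% of 1389 coding bases and had 2 counts in the WT group and 3 in the AS group. The pseudogene Gm48254 matched 92.1% of 469 bases of Cs and had 2 and 16 counts, against 36629 and 48463 for Cs. The pseudogenes Gm11241 and Gm12384, which match Mdh2, had 0 counts in every sample. How reads with several matches were counted is not given in the sources used here. Idh3b shares 5 exon bases with Nop56 on the other strand. Ogdhl, a paralog of Ogdh with no such match, fell from 43.2 ± 3.52 to 20.0 ± 0.488 CPM (SD, n = 3 each, log2 fold change -1.11, adjusted p = 5.34e-06, edgeR).

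The genes whose log2 CPM was most correlated with that of Cs over the 6 samples, out of 10855 compared, were Fam20c on chromosome 5, Plpp6 on chromosome 19 and Baalc on chromosome 15. Their Pearson correlations were 0.999, 0.999 and 0.998, given as a description, since 3 samples of each line mostly set such values. Fam20c rose by 0.59, Plpp6 by 0.64 and Baalc by 0.98 on the log2 scale (adjusted p of 0.000135, 0.000954 and 0.000422, edgeR), each more than Cs. Genes chosen by their match to Cs, which differed between the lines, tend to differ too, so these p-values are no separate evidence. The median log2 fold changes of chromosomes 5, 19 and 15 were themselves above 0, at 0.20, 0.19 and 0.20.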

How the data were processed

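The authors deposited raw read counts by gene and sample, which were not normalized. The submitters' processing notes name FastQC, Trim Galore, STAR, edgeR and the build mm39, without versions, and the counting tool is not given in the sources used here. Libraries were made from 100 ng RNA with 15 cycles of PCR. Identifiers without their version were matched to GENCODE M21 (GRCm38), 51880 of 57132, for names, chromosome, gene order and transcript length. Coordinates are those of RefSeq promoters only. Cskmt was not matched.

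Counts were analysed in R 4.3.3. Genes were kept by filterByExpr (count 10, total 15), scaled by TMM and compared, AS over WT, with the quasi-likelihood test of edgeR 4.0.16, two-sided, with Benjamini-Hochberg adjustment over 16263 genes. The standard error is the log2 fold change over the square root of F. For the test relative to the chromosome, the median log2 fold change of its genes with a mean log2 CPM over 2 was added to the offset of the AS samples. For 3 samples against 3, the smallest p of an exact permutation test is 0.10. Limits of 0 counts cover counting error only. Copies were searched with blastn 2.17.0 (at least 85% identity over 200 bases). Scripts were tested on simulated data.

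The genes named are the 9 enzymes, up to 4 called genes with the smallest adjusted p in each pathway list, copies, 3 neighbours on each side of Cs and the 3 genes most correlated with Cs. Members and lists were chosen with earlier results of these data known. Some genes of the lists are counted but not reported here by name. Alternatives were RLE scaling, library size only, DESeq2 1.42.0, limma-voom (limma 3.58.1), leaving the samples out in turn, the replicate number as a block, no filter, a filter at a mean CPM of 1, and 2 other references for the chromosome.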

Additional observations from a re-analysis of the deposited data

How the results depend on the processing

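The number of genes called stayed between 5120 and 7066, against 6517, and the median log2 fold change of all genes between -0.026 and 0.034. Cs kept its direction and call in all alternatives. Scaling by library size only called 1 of the 9 enzymes (Cs) and 1 assembly gene (Lias), where the main fit called 2 and 0. With 1 sample left out, 1 to 4 of the 9 enzymes, 2 to 4 of the other cycle enzymes, and 0 to 3 of the 9 relative to their chromosomes were called. The cause was not tested, although fewer samples entered these fits. Values near 0 changed sign with 1 sample left out: relative to their chromosomes, Cs ran from -0.033 to 0.012, Ogdh from -0.053 to 0.0049, Dlst from -0.030 to 0.027 and Suclg1 from -0.026 to 0.075, and Mdh2 before that step ran from -0.015 to 0.040. With the median of 25 genes on each side, Ogdh was at 0.047. None of these passed the threshold. Of 224 values for single enzymes other than Cs, 195 kept direction and call, 14 lost the call, 5 gained it and 10 changed sign.

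The replicate numbers were not shown to pair the samples, since the correlation of their deviations around each group's mean was 0.147, 0.0939 and 0.0526 for equal numbers and -0.130 to 0.0571 for different ones. Every sample but WT replicate 3 correlated best with its own number, as a hint from the data. With the replicate block, 7066 genes and again 2 of the 9 enzymes were called, Cs was at 0.33 (adjusted p = 0.00138, edgeR) and no other enzyme changed its call.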
